A study of Zea mays with 18 samples.

Results

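The genes es1 (GRMZM2G012012), es2 (GRMZM2G128301) and es4 (GRMZM2G009359) encode small secreted peptides of the maize embryo sac. They were taken by name, as the genes called es1, es2 and es4 in RefSeq's gene table of the B73 assembly NAM-5.0, and are 3 of the 38300 genes in the deposited table. The reference entry of es2 also carries the name es3, so no separate es3 was described. RNA was sequenced in the inbred B73 from the central cell of unfertilized ears (0 days after pollination, DAP), from self-pollinated endosperm at 1, 2, 3 and 4 DAP, and from whole embryos at 4 DAP. Each of the 6 groups had 3 libraries, 18 in all, cut by laser-capture microdissection, and the tissue label of the 0 DAP libraries is endosperm, like that of the later stages. All groups share the B73 genotype and a greenhouse origin, and the labels say that sections for a replicate of a stage came from several kernels of 1 ear. Whether libraries of different groups share an ear is not stated there, and p-values measure the spread between these samples.

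The embryo sac is the female gametophyte of a flowering plant and holds the egg cell, the synergids flanking it, the central cell and the antipodals. After double fertilization the egg cell forms the embryo and the central cell forms the endosperm. The ES peptides of maize are rich in cysteine, resemble defensins and are known as products of the embryo sac before fertilization. ES4 is known to be released by the synergids and to make the arriving pollen tube burst, by opening the potassium channel KZM1 in its membrane.

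Values are the authors' CPM, read counts scaled to a normalised library size, from which whole reads were recovered. The libraries held 7688120 to 124078873 reads. The lowest depth was that of replicate 1 at 1 DAP, where 3 reads correspond to 0.335 CPM, and replicate 1 of the embryo was the next at 9572961 reads. The lowest Pearson r between replicates within a group, over genes, was 0.933. The 6 embryo markers wox2A, wox9A, wox9B, wox9C, lec1 and vp1 summed to between 56.8 and 114 CPM in the embryo libraries and to at most 8.02 CPM in any other library. That highest sum was in replicate 3 at 1 DAP, where wox2A alone was at 7.84 CPM. Unlike the other embryo markers, wox2A had a higher mean at 1 DAP, 4.94 CPM, than in the embryo, 3.61 CPM. The 13 endosperm marker models summed to between 88.3 and 176 CPM in the central cell, between 480 and 899 CPM in the 4 DAP endosperm and between 515 and 798 CPM in the embryo, so their sum does not set embryo and endosperm apart. Among them fie1 averaged 82.1 CPM in the 4 DAP endosperm and 2.88 CPM in the embryo, while esr1, of the embryo-surrounding region, averaged 77.3 and 350 CPM. The central cell sum was nearly all pbf1 (GRMZM2G146267) and MRP1, and each other model averaged at most 0.258 CPM there. This pbf1 model had means of 65.8 to 87.6 CPM in all 6 groups. Another model matched to the name pbf1, GRMZM2G146283, had means of 0.121 to 0.532 CPM and did not pass the filter for testing. Which of them is the intended marker was not checked. The model named MRP1, GRMZM2G113203, went against the rise of the sum, from a mean of 35.7 CPM in the central cell to 0.0708 CPM in the 4 DAP endosperm. It was matched by name alone, ignoring case, and whether it is the transfer-cell regulator Mrp1 was not checked. The cDNA was amplified, so reads are not independent molecules, and counting intervals cover counting error only.

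The 3 es genes were abundant in the central cell, fell to between 4.55% and 7.34% of that level within 1 day of pollination, and from 2 DAP on were at or near 0 reads. All 3 passed the filter of at least 1 CPM in at least 3 libraries, and they did so only through the 0 and 1 DAP libraries. In the central cell, es1 was at 34.9, 120.5 and 104.6 CPM in replicates 1, 2 and 3, a mean of 86.7 ± 45.6 CPM (SD, n = 3), from 2519, 9744 and 4293 reads. The gene es2 was at 61.4, 138.7 and 116.7 CPM, a mean of 106 ± 39.8 CPM (SD, n = 3), from 4431, 11214 and 4787 reads. The gene es4 was at 84.4, 214 and 163 CPM, a mean of 154 ± 65.5 CPM (SD, n = 3), from 6090, 17333 and 6679 reads. Replicate 1 was the lowest and replicate 2 the highest central cell library for each of the 3 genes. Within these libraries es4, the peptide tied to pollen tube burst, ranked between place 660 and place 1885 by CPM.

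At 1 DAP, when the fertilized central cell has begun to divide its nuclei, es1 was at 1.90, 11.4 and 5.83 CPM, a mean of 6.36 ± 4.76 CPM (SD, n = 3). The lowest of these values rests on 17 reads and the others on 789 and 321. The gene es2 was at 4.24, 5.67 and 4.52 CPM, a mean of 4.81 ± 0.756 CPM (SD, n = 3), from 38, 393 and 249 reads. The gene es4 was at 7.47, 10.8 and 8.75 CPM, a mean of 8.996 ± 1.66 CPM (SD, n = 3), from 67, 747 and 482 reads. Every 1 DAP library was below every central cell library for all 3 genes, which was so for 18.5% of the genes tested. The place of es4 within a library lay between 9931 and 11511 at this stage.

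**Figure D1:**
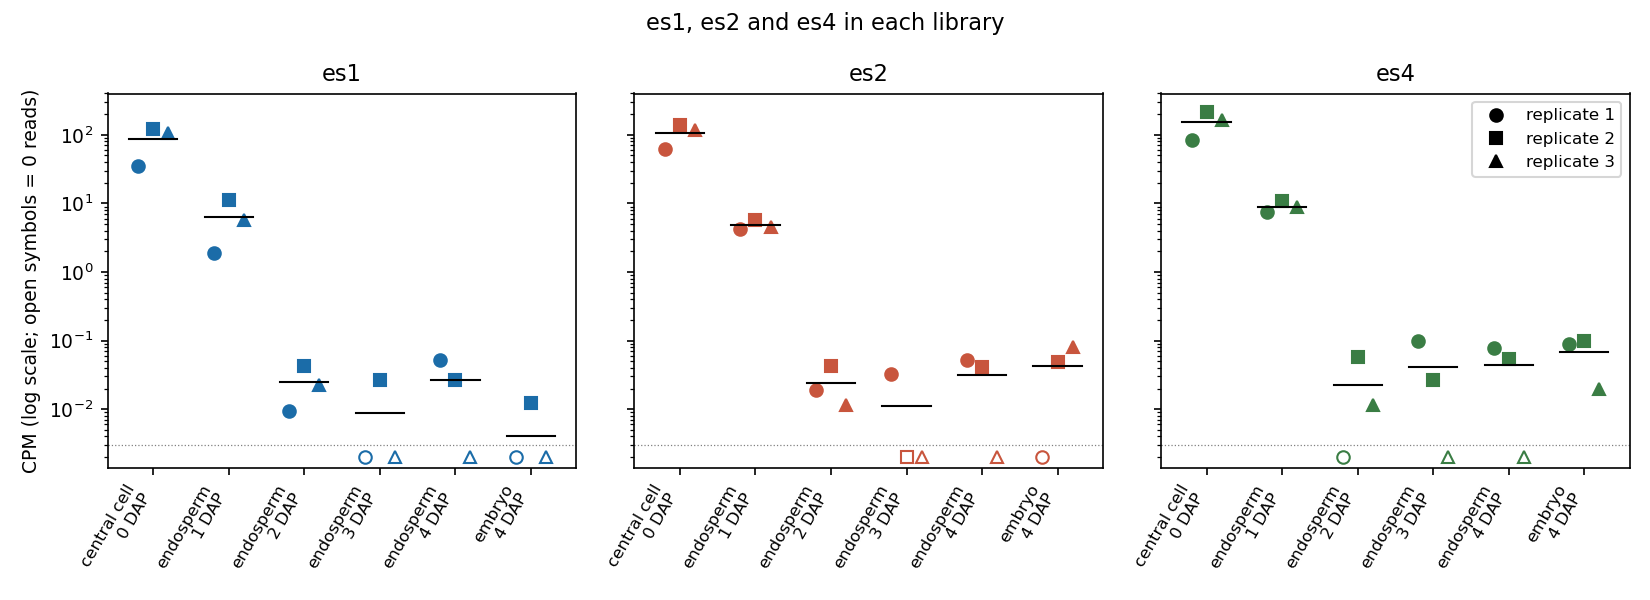
CPM of es1, es2 and es4 in each of the 18 libraries, on a log axis. Each symbol is a library, horizontal bars are group means, and open symbols under the dotted line had 0 reads. The central cell libraries of es4 sit between 84.4 and 214 CPM, those of 1 DAP between 7.47 and 10.8 CPM, and no later endosperm library exceeds 0.0991 CPM for any of the 3 genes.

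The fall from 0 to 1 DAP was past the threshold for each member. Changes are differences in log2(CPM + 1) from a limma model over all 18 libraries, a gene was called at a Benjamini-Hochberg adjusted p below 0.05 over the 31783 genes tested, and adding 1 to each CPM value shrinks the changes of weakly expressed genes. The gene es1 fell by 3.63 (SE 0.427, limma adjusted p = 1.27e-05), with means 13.6-fold apart. The gene es2 fell by 4.13 (SE 0.240, limma adjusted p = 4.56e-09), with means 22.0-fold apart. The gene es4 fell by 3.87 (SE 0.262, limma adjusted p = 2.72e-08), with means 17.1-fold apart. Of all genes tested, 12.6% were called lower in this comparison, and 3 of 3 members were. Counted from the largest fall, es2, es4 and es1 stood at places 21, 28 and 35 of 31783. The standard errors come from a spread shared with groups in which the genes are near 0, and with the 0 and 1 DAP libraries alone the adjusted p was 0.00759 for es1, 0.000499 for es2 and 0.000856 for es4. In tissue libraries, fewer cells or nuclei carrying a transcript and less transcript in each cannot be told apart.

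Markers of other cells were lower at later stages too, and limma called 3 of 3 nucellus markers lower at 4 DAP than at 0 DAP, against 19.7% of all genes. The sum of the nucellus and ovule genes zag2, ZAG1 and bde1, of which zag2 is a MADS-box gene of the developing ovule, ran from 69.4 to 96.7 CPM in the central cell libraries. It ran from 45.6 to 61.8 CPM at 1 DAP, from 21.5 to 28.6 CPM at 2 DAP, from 2.38 to 10.9 CPM at 3 DAP and from 0.597 to 4.49 CPM at 4 DAP. From 0 to 1 DAP limma called 0 of these 3 markers, 0 had an unadjusted p under 0.05, and edgeR and DESeq2 called 0, where 22.9%, 18.8% and 23.8% of all genes were called by the 3 tools. Over this step zag2, which makes up most of the sum, went from a mean of 79.7 to 50.1 CPM (limma adjusted p = 0.465). The mean of bde1 went from 1.72 to 0.683 CPM and that of ZAG1 from 1.64 to 2.30 CPM. The egg-apparatus gene Ea1, which encodes a small protein of the egg cell and synergids that attracts pollen tubes, was at 0.734, 2.00 and 2.71 CPM in the central cell libraries and at 0, 0.159 and 0.308 CPM at 1 DAP. In replicate 1 at 1 DAP no read of Ea1 was counted, and 3 reads would be 0.335 CPM. The part of these cells in the es values was not tested. The only photosynthesis marker matched, cab-m1, was at 0.658 CPM or less in every central cell library.

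At 2 DAP the 3 genes were at the edge of detection. The gene es1 had 1, 3 and 2 reads in the 3 libraries, es2 had 2, 3 and 1, and es4 had 0, 4 and 1, in libraries of 81035626 to 124078873 reads. The highest of these values was 0.0571 CPM, for es4 in replicate 2, below each 1 DAP library of each gene. From 1 to 2 DAP es1 fell by 2.61 (SE 0.427, limma adjusted p = 0.000437), es2 fell by 2.50 (SE 0.240, adjusted p = 2.65e-06) and es4 fell by 3.28 (SE 0.262, adjusted p = 3.73e-07) on the log2(CPM + 1) scale. In this comparison 10.6% of the genes tested were called lower, and 3 of 3 members were, and for 18.1% of all genes every 2 DAP library was below every 1 DAP library. The pseudocount bears on this step: edgeR's quasi-likelihood test on the recovered reads gave log2 changes of -8.02 for es1, -7.60 for es2 and -8.72 for es4, with adjusted p of 4.49e-05, 8.52e-06 and 2.48e-05, and called 10.9% of all genes lower. Pooled over the 3 libraries of each stage, the central cell exceeded 2 DAP by 3737-fold for es1 (exact 95% counting interval 1717 to 10185), by 4612-fold for es2 (2119 to 12569) and by 8154-fold for es4 (3493 to 25113).

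No later rise was detectable at this depth. Over the 9 endosperm libraries of 2 to 4 DAP, es1 had 15 reads in all, es2 had 17 and es4 had 25, and each gene was without a read in 3 of the 9 libraries. The reads of es4 at 3 DAP were 6, 1 and 0 and at 4 DAP 9, 4 and 0. Those of es1 were 0, 1 and 0 at 3 DAP and 6, 2 and 0 at 4 DAP, and those of es2 were 2, 0 and 0 and then 6, 3 and 0. The stages overlapped for each gene from 2 to 3 DAP and from 3 to 4 DAP. In either comparison limma called 0 of 3 members, 0 of 3 had an unadjusted p under 0.05, and edgeR and DESeq2 called 0 of 3. At these levels the added 1 CPM holds limma's changes near 0, so they do not bear on whether the genes changed. On the recovered reads edgeR gave log2 changes of -1.85 for es1, -1.06 for es2 and 0.83 for es4 from 2 to 3 DAP, and of 2.09, 1.48 and 0.30 from 3 to 4 DAP. From 2 to 3 DAP limma called 2.63% of all genes in either direction, edgeR 2.72% and DESeq2 6.57%, and from 3 to 4 DAP the shares were 2.49%, 2.04% and 4.95%.

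Set directly against the central cell, the 4 DAP endosperm differed by -6.23 for es1 (limma adjusted p = 7.76e-09), by -6.61 for es2 (8.28e-12) and by -7.11 for es4 (8.28e-12) on the log2(CPM + 1) scale, and 19.7% of the genes tested were called lower. Pooled reads placed the central cell 2862-fold above the 4 DAP endosperm for es1 (exact 95% counting interval 1452 to 6630), 3139-fold for es2 (1653 to 6866) and 3202-fold for es4 (1872 to 6014). These values share the central cell libraries with the comparison to 1 DAP.

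The embryo, which derives from the fertilized egg cell, held few es reads too. Its 3 libraries held 0, 1 and 0 reads of es1, 0, 4 and 4 reads of es2, and 1, 8 and 1 reads of es4. The highest embryo value was 0.0991 CPM, for es4 in replicate 2. Embryo and endosperm at 4 DAP overlapped for each gene: limma called 0 of 3, 0 of 3 had an unadjusted p under 0.05, and edgeR and DESeq2 called 0 of 3. The log2 difference on the recovered reads by edgeR was -1.84 for es1, 0.69 for es2 and 0.48 for es4, from 0 to 9 reads per library. In this comparison limma called 23.5% of all genes in either direction, edgeR 22.4% and DESeq2 26.9%. Against the central cell, the embryo differed by -6.27 for es1 (limma adjusted p = 6.97e-09), by -6.60 for es2 (4.09e-12) and by -7.08 for es4 (4.73e-12), where 20.0% of the genes tested were called lower. In the order of levels the central cell stood first and the 1 DAP endosperm next, each apart from its neighbour, and the other 4 groups could not be ordered, since their libraries held 0 to 9 reads of a gene.

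**Figure D2:**
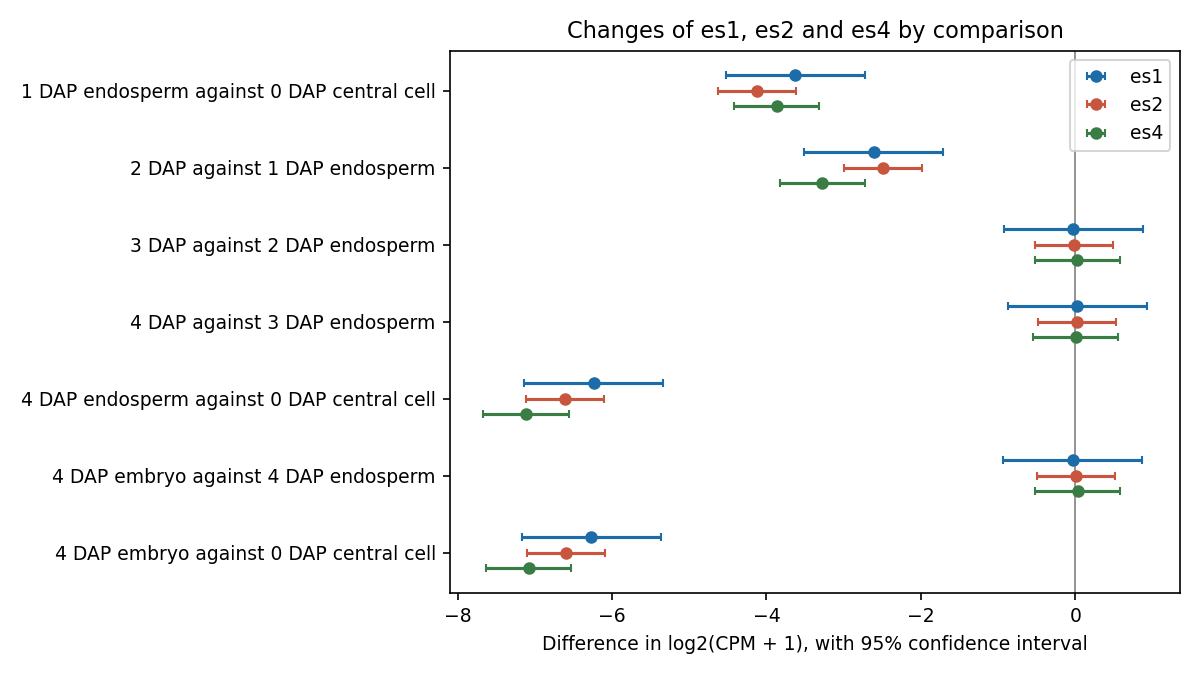
Difference in log2(CPM + 1) of es1, es2 and es4 in each of 7 comparisons (first group minus the second), with 95% confidence intervals from the limma model. The points of 1 DAP against 0 DAP lie between -4.13 and -3.63, those of 2 DAP against 1 DAP between -3.28 and -2.50, and those among the later groups between -0.0316 and 0.0339, where the added 1 CPM holds them.

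Ratios between the members were compared at the stages where all were measurable. Gene lengths of the build used for counting were not used here, so levels of different genes were not compared, and only the change of a ratio within libraries is read. The CPM ratio of es4 to es2 was 1.37, 1.55 and 1.40 in the central cell libraries and 1.76, 1.90 and 1.94 at 1 DAP, groups that do not overlap. The log2 difference was 0.38 (SE 0.067, n = 3 per group, exact permutation p = 0.1, which is the smallest p that 3 against 3 libraries allow, and 0.3 after adjustment over the 3 ratios). The ratio of es1 to es2 was 0.568, 0.869 and 0.897 in the central cell and 0.447, 2.01 and 1.29 at 1 DAP, and these overlap (exact permutation p = 0.5). For es4 to es1 the exact permutation p was 0.8. The lowest es1 to es2 ratio is that of the library with 17 es1 reads.

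**Figure D3:**
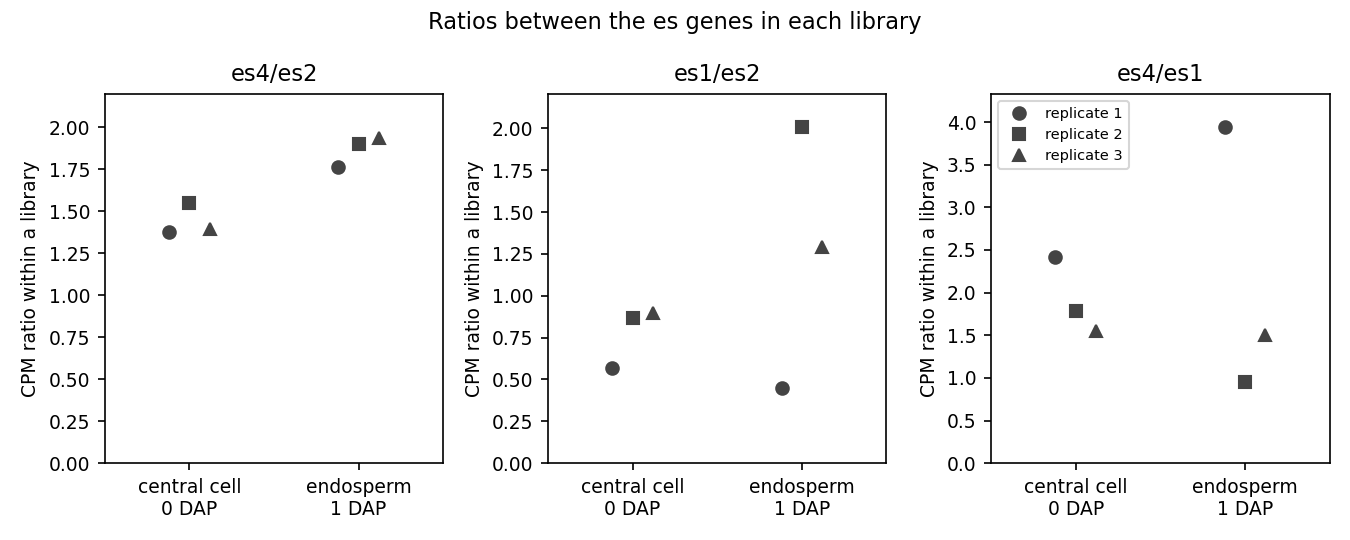
CPM ratios between pairs of es genes within each library of the central cell and of the 1 DAP endosperm, on linear axes from 0. Each symbol is a library. The es4 to es2 ratio lies between 1.37 and 1.55 at 0 DAP and between 1.76 and 1.94 at 1 DAP, while the es1 to es2 ratio spreads from 0.447 to 2.01 at 1 DAP.

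The other named genes of the embryo sac were EBE-1 (GRMZM2G129157) and EBE-2 (GRMZM2G167733), known for expression in the embryo sac and in the basal endosperm, and Ea1 (GRMZM2G456746). From 0 to 1 DAP all 3 were called lower by limma, 6 of 6 with the es genes, against 12.6% of all genes tested. The median change of these other 3 genes was -1.39, against -0.04 over all genes tested and changes of -4.13 to -3.63 for the es genes. EBE-1 was at 33.3, 69.4 and 35.9 CPM in the central cell and at 12.6, 20.8 and 15.7 CPM at 1 DAP, a change of -1.39 (SE 0.373, limma adjusted p = 0.0123). EBE-2 was at 251.5, 627.4 and 256.6 CPM and then at 91.7, 141.4 and 111.5 CPM, a change of -1.59 (SE 0.556, limma adjusted p = 0.0471). The EBE-2 call was lost in 16 of 29 alternatives, among them edgeR (adjusted p = 0.0561), no filter on low values (0.0505), equal library totals (0.0705) and a pseudocount of 0.25 (0.0745). It was also lost on leaving out any library of 0 or 1 DAP, or any of 6 libraries of later stages, with adjusted p between 0.0525 and 0.209. Without replicate 2 of the central cell neither EBE-1 (0.0743) nor EBE-2 (0.209) was called by limma. Ea1 fell by 1.22 (SE 0.333, limma adjusted p = 0.0131), a call lost without replicate 3 of the central cell (0.0636).

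After 1 DAP the EBE genes took another course than the es genes. EBE-1 rose to 53.7, 50.7 and 108.6 CPM at 2 DAP (limma adjusted p = 0.00130), and EBE-2 rose to 581.9, 605.8 and 1211 CPM (adjusted p = 0.00239). In the same comparison 9.95% of the genes tested were called higher, and the 3 es genes were called lower. At 4 DAP EBE-2 was still at 104.1, 236.4 and 253.6 CPM in the endosperm, and at 1.15, 11.8 and 9.54 CPM in the embryo, a difference of -4.80 between embryo and endosperm (limma adjusted p = 4.67e-06), where 11.1% of all genes were called lower in the embryo. Ea1 had no read in the 3 libraries of 3 DAP and was at 0.622, 4.28 and 3.67 CPM in the embryo, higher than in the 4 DAP endosperm by 1.76 (SE 0.333, limma adjusted p = 0.000788), as were 12.4% of all genes, while each es gene was at 0.0991 CPM or less there.

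**Figure D4:**
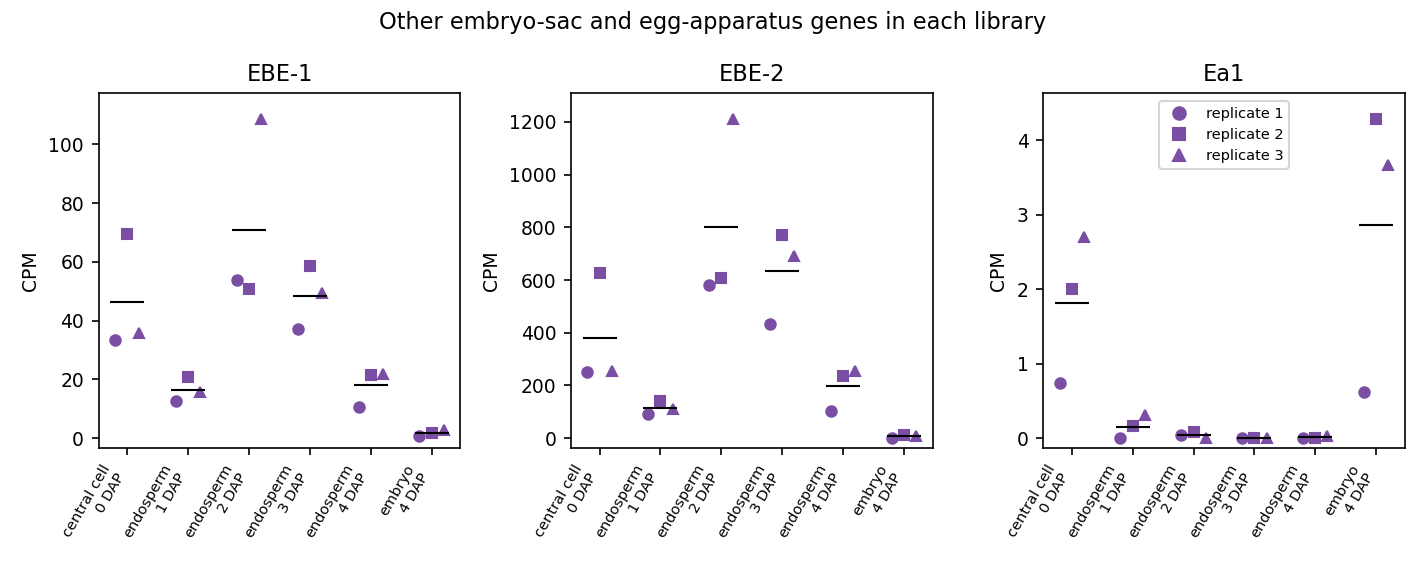
CPM of EBE-1, EBE-2 and Ea1 in each library on linear axes, with group means as bars. EBE-2 falls to 91.7 to 141.4 CPM at 1 DAP and lies between 581.9 and 1211 CPM at 2 DAP, and Ea1 is at 0 reads in all 3 DAP libraries and at 0.622 to 4.28 CPM in the embryo.

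The named genes of other small secreted peptides were mostly low until 4 DAP. The 20 gene models with names of the ESR, BETL, BAP and MEG peptides and of lipid transfer proteins include peptides of the embryo-surrounding region and of the basal transfer layer that feeds the endosperm. From 0 to 1 DAP limma called 0 of 20, against 22.9% of all genes tested in either direction. In the same comparison 0 of 20 had an unadjusted p under 0.05, edgeR and DESeq2 called 0 of 20 as well (18.8% and 23.8% of all genes), and the median change was -0.04, against -0.04 over all genes tested. Apart from the lipid transfer protein genes PLTP, plt2 and LTP3, these models averaged at most 0.651 CPM at 0 and 1 DAP. At such levels the added 1 CPM holds limma's changes near 0, so the 0 calls do not bear on whether they changed. They passed the filter only through libraries of 3 DAP or later, and the count from 3 to 4 DAP rests on that filter too. From 3 to 4 DAP 17 of 20 were called higher, against 1.67% of all genes, with a median of 4.63. The transfer-layer peptide gene betl2, for example, was at a mean of 0.0550 ± 0.0953 CPM (SD, n = 3) at 3 DAP and of 215 ± 133 CPM (SD, n = 3) at 4 DAP. The lipid transfer protein gene PLTP was at 91.2 ± 15.8 CPM in the central cell, 62.7 ± 13.9 CPM at 1 DAP and 4.88 ± 1.29 CPM at 2 DAP (SD, n = 3), and was called lower from 1 to 2 DAP (limma adjusted p = 1.78e-05). It was called lower again from 2 to 3 DAP, to 0.551 ± 0.163 CPM (SD, n = 3, limma adjusted p = 0.0141). That call was lost with a pseudocount of 5 (limma adjusted p = 0.287). It was also lost without replicate 1 or 2 of 2 DAP, without replicate 1 or 3 of 3 DAP, and without all replicate 1 libraries. With these libraries left out the limma adjusted p was 0.0516 to 0.0758.

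Of the Shaker potassium channels, the family of the ES4 target KZM1, the channels KZM2 (GRMZM2G093313) and ZMK1 (GRMZM2G171279) could be matched by name. KZM1 itself, which acts in the pollen tube, was not analysed here. ZMK1, an inward potassium channel, was at 18.9, 7.26 and 9.38 CPM in the central cell and at 1.56, 0.836 and 2.00 CPM at 1 DAP, a change of -2.31 (SE 0.345, limma adjusted p = 0.000137). It then rose to 17.4, 8.45 and 14.0 CPM at 2 DAP (limma adjusted p = 9.26e-05) and was at 0.297, 0.263 and 0.283 CPM at 3 DAP (adjusted p = 2.54e-05), where 0.746% of all genes were called lower. KZM2 averaged 2.02 CPM in the central cell and 1.66 CPM at 1 DAP and was not called by limma, edgeR or DESeq2 in any of the 7 comparisons, with an unadjusted limma p under 0.05 in 1 of them, the embryo against the endosperm.

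The genes most like the members were found from the 6 group means of log2(CPM + 1), each centred on its own mean, by the root mean square difference to the mean profile of the 3 members. The members themselves lay 0.108 (es2), 0.154 (es1) and 0.216 (es4) from that profile. The 5 closest other genes of the 31783 carry no name. GRMZM2G047842 was 0.167 away, with 104 CPM at 0 DAP, 8.30 CPM at 1 DAP and 0.306 CPM at 2 DAP, closer than es4 is. GRMZM2G070978 was 0.309 away, with 84.7, 7.88 and 0.313 CPM at the same stages, and GRMZM2G019644, GRMZM2G316389 and GRMZM2G362828 were 0.462 to 0.484 away. All 5 were above the es genes at 2 DAP by their group means. The 5 closest named genes were ole17, an oleosin of oil bodies, at 0.702, Amy2, an alpha-amylase, at 0.837, CesA13, a cellulose synthase, at 0.878, aba1 at 0.904 and cc6, a cystatin, at 0.929. The gene ole17 went from 35.2 CPM at 0 DAP to 10.4 CPM at 1 DAP and 0.0302 CPM at 2 DAP, means 3.38-fold and then 345-fold apart. The es1 means were 13.6-fold and then 254.3-fold apart over the same steps.

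In the gene order of the later B73 assembly NAM-5.0, es4 and es2 are next to each other with 0 entries between them, and es1 lies on the same chromosome with 25 entries between it and es2. The builds differ, so only the order is used. Within 10 entries on either side of a member, 12 other gene models could be joined to the deposited table and were tested. From 0 to 1 DAP 3 of these 12 were called lower, 2 higher and 7 neither way, against 12.6% and 10.3% of all genes tested. The gene next to es2, GRMZM2G170843, went from 88.4 ± 6.89 to 33.6 ± 14.6 CPM (SD, n = 3), a change of -1.47 (SE 0.288, limma adjusted p = 0.00136), and stayed at means of 35.6 to 48.6 CPM from 2 to 4 DAP. The gene next to es4 on the other side, GRMZM2G009163, was at 2.35 ± 1.14 CPM and then 3.95 ± 0.873 CPM (SD, n = 3) and was not called. The largest fall of a neighbour from 0 to 1 DAP was that of pc326, which fell by 2.02, from 42.9 to 10.1 CPM. Its lowest later endosperm mean was 5.04 CPM, against means of 0.0444 CPM or less for the es genes. Another neighbour, GRMZM2G510387 near es1, was not called from 0 to 1 DAP but was low later. Its means were 9.46, 6.71, 1.41, 0.877 and 0.131 CPM from 0 to 4 DAP and 0.162 CPM in the embryo.

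**Figure D5:**
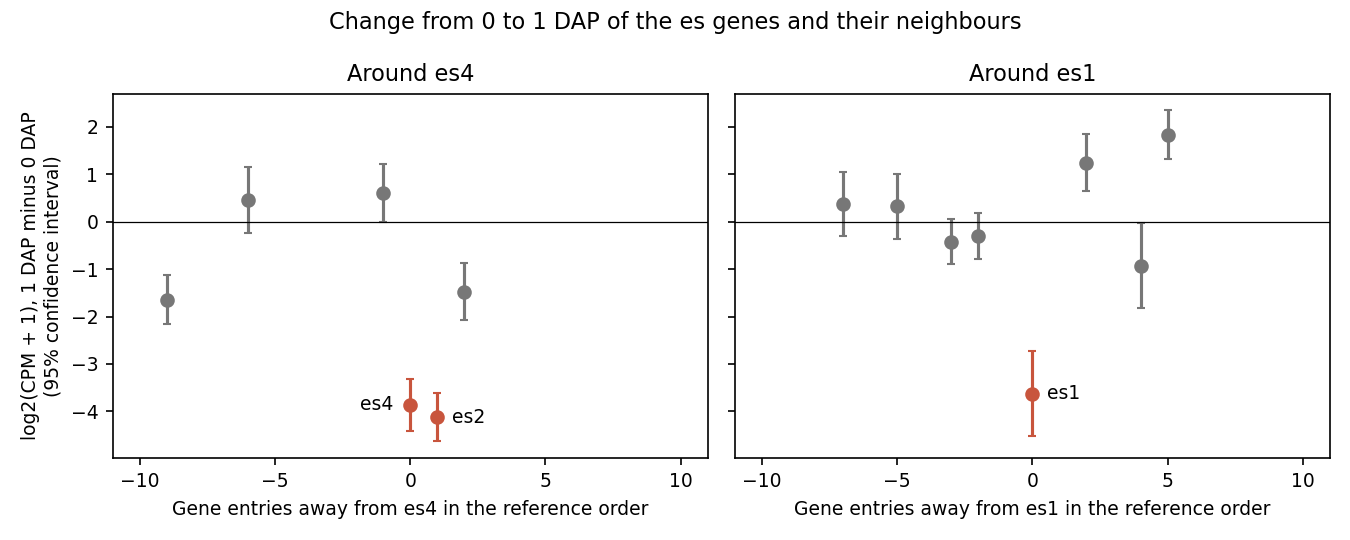
Change from 0 to 1 DAP in log2(CPM + 1) of es4 and es2 (left), of es1 (right) and of the neighbouring genes tested within 10 entries of es4 and of es1, with 95% confidence intervals, against their place in the reference gene order. The es genes lie between -4.13 and -3.63, and the neighbour next to es2 at -1.47.

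How the authors counted strand and reads that map to several genes is not stated in the labels. A read of a close copy, es2 for es4 for instance, or of a gene overlapping on the other strand could have been assigned to a member.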

How the data were processed

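RNA was measured in 18 libraries, 3 in each of 6 groups taken from the sample labels. The values deposited by the authors are a normalised signal for each gene in each library, CPM on an adjusted library size. The build was B73 RefGen_v3, per the submitters' processing notes, which list edgeR, bedtools 2.17.0, TopHat2 2.0.9 and Trimmomatic with no account of their roles. Per the labels' protocols, the RNA of 0 to 2 DAP and of the embryo was quantified by its 18S band, unlike that of 3 and 4 DAP endosperm, so this difference and the stages cannot be told apart. Within 0.001 reads, 100% of the deposited values were whole multiples of a step per library, so whole reads were recovered, 7688120 to 124078873 per library.

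Of the 38300 genes, the 31783 that reached 1 CPM in 3 or more libraries were tested. On log2(CPM + 1), limma 3.58.1 with a trended variance (R 4.3.3) fitted a mean for each group over the 18 libraries. P-values were adjusted by Benjamini-Hochberg within each of 7 comparisons, two-sided, with calls below 0.05. On the recovered reads edgeR 4.0.16 called 5984 genes from 0 to 1 DAP, where limma called 7276, and DESeq2 1.42.0 called 7566. Ratios of 2 genes were compared with two-sided exact permutation tests in scipy 1.17.1. Alternatives were the pseudocount, the filter, quantile and library-total scaling, the groups fitted, a replicate block, edgeR, DESeq2 and leaving out libraries. In simulated 0 to 1 DAP data of 31783 genes, limma recovered 100% of 16-fold falls and 34% of 4-fold falls. The simulation gave a gene the same mean in every unchanged group and all genes the same dispersion. The es genes are near 0 from 2 DAP on, so these rates do not carry over to them.

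Over the 7 comparisons every same-number correlation of deviations from the group means lay between 0.149 and 0.696. Correlations between libraries of different number ran from -0.580 to 0.389. Those of replicate 1 with replicate 2 or 3 were all negative. Those between replicates 2 and 3 were mostly positive, and some exceeded same-number values. Deviations within a group of 3 sum to 0 for each gene. A positive replicate 1 value thus forces at least 1 of its correlations with replicates 2 and 3 to be negative. Those negative signs are therefore partly fixed in advance and do not by themselves set replicate 1 apart. In each comparison the highest same-number value was that of replicate 1, and replicates 2 and 3 were not clearly paired by number. The labels do not say whether libraries of the same number share an ear, day or batch, so any pairing comes from the data only. Named are the 3 members, the genes of the lists, the neighbours, and the 5 genes closest in pattern with and without the need for a name. Gene names came from a RefSeq gene table of the assembly NAM-5.0, which 14444 of the 38300 identifiers (37.7%) matched. The members and lists were chosen with earlier results of these data known. Sequences and genome positions were not used here.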

Additional observations from a re-analysis of the deposited data

How the results depend on the processing

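The 12 called changes of es1, es2 and es4 stayed called in the same direction in all 348 recomputations, 29 alternatives each. Many of these could alter only the p-value and not the change itself. Such were leaving out a library of neither compared group, dropping the filter, the replicate block in limma and fitting the compared groups only. The other 9 results compare groups with 0 to 9 reads of a gene per library and say nothing of stability. From 0 to 1 DAP the es1 change ran from -4.18 to -2.94, that of es2 from -4.47 to -3.42 and that of es4 from -4.25 to -3.42. From 1 to 2 DAP the es1 change ran from -8.11 by DESeq2 to -1.09 with a pseudocount of 5, where its adjusted p was 0.0257. With the replicate block the 0 to 1 DAP adjusted p was 1.78e-06 for es1, 2.43e-09 for es2 and 9.57e-09 for es4, and the block changed no other call the text names except that of the neighbour GRMZM5G806784 (0.0330).

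Counts over all genes moved more. From 0 to 1 DAP the 7276 calls became 4305 with the compared groups only. From 1 to 2 DAP the 6539 calls became 10389 with the replicate block and 9999 by edgeR with it. From 2 to 3 DAP the 837 calls became 366, 2424 and 2833 in the same order, 2088 by DESeq2, and 360 to 473 in the left-out libraries that moved it most. From 3 to 4 DAP the 792 calls became 393, 2739, 2484 and 1574, 323 to 454 on leaving out a library, and 1226 without all replicate 1 libraries. Scaling each library to the same total moved the median of all genes to -0.24 from 1 to 2 DAP, 0.15 from 3 to 4 DAP, and 0.13 and 0.14 for the 4 DAP endosperm and the embryo against the central cell. The share of higher calls went from 48.4% to 18.9% from 1 to 2 DAP, from 45.1% to 58.7% from 0 to 1 DAP (56.4% by edgeR), from 71.7% to 84.8% from 2 to 3 DAP (60.8% by edgeR), from 67.2% to 87.9% from 3 to 4 DAP and from 48.5% to 59.1% for the embryo against the central cell. From 3 to 4 DAP, BETL1 (adjusted p = 0.0616) and bap1-b (0.249) were not called by DESeq2, nor esr2 (0.0670), esr6 (0.0522) and bap1-b (0.0565) with the compared groups only. Depth limits the es values from 2 DAP on: 3 reads correspond to 0.0263 to 0.0790 CPM in those endosperm libraries, close to the values themselves.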

Other observations

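Few genes as abundant as the es genes in the central cell became as scarce. Of the 3131 genes with a central cell mean of at least 50 CPM, 7 (0.224%) were below 0.1 CPM in all 9 endosperm libraries of 2 to 4 DAP, by limits chosen after the values of the es genes were seen. The 7 were es1, es2, es4, GRMZM2G046252, GRMZM5G811692, GRMZM2G178554 and GRMZM2G038714, and they are named here because of their values. GRMZM2G178554 went from 125 CPM in the central cell to 6.24 CPM at 1 DAP and was at a mean of 1.82 CPM in the embryo. GRMZM2G038714 went from 60.9 to 1.00 CPM. GRMZM2G046252 and GRMZM5G811692 had the same means, 161.7 CPM in the central cell and 45.0 CPM at 1 DAP, so reads shared by these models cannot be told apart here.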
